A study of Mus musculus with 2 samples.

Results

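Lipid-associated macrophages are macrophages that take up and store lipid, known from fat tissue, atherosclerotic plaques and injured organs. A set of 10 genes by which such cells are usually recognised (Trem2, Apoe, Gpnmb, Fabp4, Fabp5, Cd36, Lpl, Cd9, Tyrobp and Lgals3) was followed through the kidney cortex. They are 10 of the 31053 genes in the count tables, were chosen by symbol, and all had UMIs in both libraries. Single-cell suspensions of cortex from 12-week-old mice had been profiled by 3' droplet RNA sequencing, in which a molecule is counted once by its unique molecular identifier (UMI). 1 library came from mice expressing I-PpoI specifically in podocytes and the other from wild-type mice. The enzyme I-PpoI cuts DNA at a long recognition sequence. Podocytes wrap the capillaries of the glomerulus and form part of its filter. The labels name neither the promoter that restricts I-PpoI to podocytes nor the number of mice behind each library, and the I-PpoI transcript was not analysed here.

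As background, TREM2 is a lipid-sensing surface receptor of macrophages that signals through the adaptor TYROBP (DAP12). Cells under this pathway ingest lipoproteins and dying cells, hydrolyse their lipids in lysosomes and hand cholesterol on through apolipoprotein E. CD36 takes up fatty acids and oxidised lipoproteins, lipoprotein lipase (Lpl) frees fatty acids from triglycerides, and the fatty acid binding proteins FABP4 and FABP5 carry fatty acids inside the cell. GPNMB is a membrane glycoprotein of lysosome-rich cells, CD9 is a tetraspanin, and galectin-3 (Lgals3) is a sugar-binding lectin of phagocytes. Several of these genes are not limited to macrophages, since Fabp4 and Cd36 are also known from capillary endothelium.

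The I-PpoI library gave 3949 cells with 35037164 UMIs (median 6647 per cell) and the wild-type library 3094 cells with 19595441 UMIs (median 3486.5). The median share of mitochondrially encoded UMIs was 3.31% in I-PpoI cells and 14.3% in wild-type cells, and 3 barcodes of kept cells occurred in both libraries. Clusters were made without the 10 genes and without the related lists used below, and they were named from markers that include none of these genes. Macrophage-like cells, defined by the complement C1q genes, Csf1r, Adgre1 and similar markers, numbered 1514 (38.3% of cells, 13577645 UMIs) in the I-PpoI library and 167 (5.40%, 747314 UMIs) in the wild-type library. Left out of these counts were 2 unnamed clusters with C1q genes among their leading genes. The first was led by haemoglobin genes (225 I-PpoI and 69 wild-type cells), the second by neutrophil genes (55 and 7 cells). With the first, the class held 1739 I-PpoI and 236 wild-type cells. With 1 library per group no difference could be tested. Levels are in CPM, the UMIs of a gene among 1000000 UMIs after the cells of a class are summed, and they compare a gene between cells, not different genes with each other. All intervals are exact 95% intervals and cover counting error only.

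Within macrophage-like cells, 5 of the 10 genes (Trem2, Apoe, Gpnmb, Fabp4 and Fabp5) were at least 2-fold higher in the I-PpoI library and 2 (Cd36 and Lpl) were at least 2-fold lower. Over all 9251 genes with 50 or more UMIs in these cells, 10.2% were at least 2-fold higher and 7.21% at least 2-fold lower. The genes of fatty acid uptake and triglyceride hydrolysis therefore differed in the opposite direction to the receptor and apolipoprotein genes.

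Trem2 (chr17:48346401-48354147, plus strand; gene spans are those of GENCODE release M21 on mm10) stood at 496 CPM in I-PpoI macrophage-like cells (6731 UMIs), against 66.9 CPM in wild-type ones (50 UMIs), a ratio of 7.41 (5.61 to 9.99). Tyrobp (chr7:30413760-30417585, plus strand), which encodes its signalling partner, was at 2246 CPM in I-PpoI and 2370 CPM in wild-type cells, a ratio of 0.948 (0.903 to 0.995). The receptor gene was thus several times higher while the adaptor gene was slightly lower. Apoe (chr7:19696109-19699188, minus strand) reached 44329 CPM in I-PpoI and 8482 CPM in wild-type cells, a ratio of 5.23 (5.10 to 5.36).

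Lpl (chr8:68880491-68907448, plus strand) was at 57.6 CPM in I-PpoI cells (782 UMIs) and 241 CPM in wild-type cells (180 UMIs), a ratio of 0.239 (0.203 to 0.283). Cd36 (chr5:17781690-17888801, minus strand) was at 58.6 CPM in I-PpoI and 136 CPM in wild-type cells, a ratio of 0.430 (0.349 to 0.533). Tubular cells also carry both transcripts, and the wild-type macrophage-like cells held more tubular RNA, with proximal tubule markers at 1.12% of their level in proximal tubule-like cells, against 0.0487% in the I-PpoI library. Scaled by these shares, tubular RNA would bring 6.79 CPM of Lpl and 2.56 CPM of Cd36 to the wild-type macrophage-like cells. Only proximal tubule markers were scaled, and the part of RNA from other cells in the difference was not tested.

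Fabp5 (chr3:10012548-10016607, plus strand) had 4276 UMIs (315 CPM) in I-PpoI macrophage-like cells and 6 UMIs (8.03 CPM) in wild-type ones, a ratio of 39.2 (18.0 to 107). Fabp5 has processed copies elsewhere in the mouse genome, and how the counting treated reads shared with them is not given in the sources used here. Its neighbour Fabp4 (chr3:10204088-10208576, minus strand) had 228 UMIs (16.8 CPM) in I-PpoI and 4 UMIs (5.35 CPM) in wild-type cells, a ratio of 3.14 (1.21 to 11.6). The direction for Fabp4 depended on the clustering. Its log2 ratio was 1.65 here, -1.37 at a Leiden resolution of 0.5 and -1.38 when the 10 genes and lists were left in the clustering. The wild-type class then held 176 and 174 cells in place of 167. The 9 wild-type monocyte-like cells, kept apart here, held 31 Fabp4 UMIs. Whether such cells entered the class at those settings was not tested.

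Gpnmb (chr6:49036546-49070929, plus strand) had 448 UMIs in I-PpoI macrophage-like cells (33.0 CPM) and 0 in wild-type ones, so that with 3 UMIs as the wild-type limit it was at least 8.22-fold higher. Lgals3 (chr14:47367751-47386160, plus strand) stood at 627 CPM in I-PpoI and 415 CPM in wild-type cells, a ratio of 1.51 (1.35 to 1.70). Cd9 (chr6:125460266-125494791, minus strand) stood at 289 CPM in I-PpoI and 234 CPM in wild-type cells, a ratio of 1.23 (1.06 to 1.44). For both of these genes the libraries differed by less than 2-fold.

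**Figure D1:**
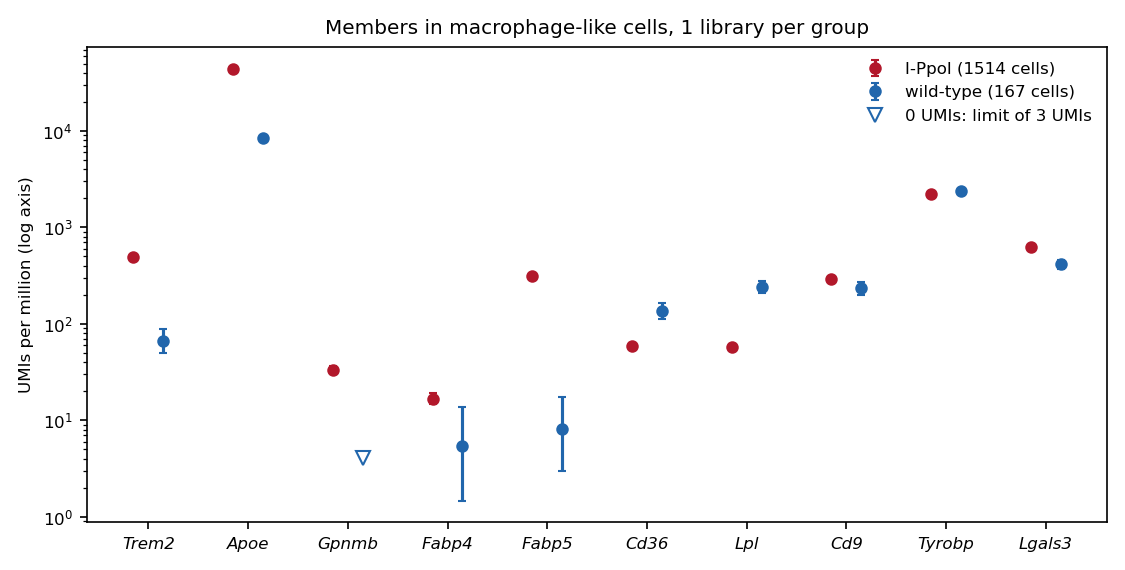
Level of each gene in macrophage-like cells of the I-PpoI library (red, 1514 cells) and the wild-type library (blue, 167 cells) in CPM on a log axis, with exact 95% counting intervals; the open triangle marks 0 UMIs at the limit of 3 UMIs. Trem2, Apoe, Gpnmb, Fabp4 and Fabp5 lie at least 2-fold higher in I-PpoI cells and Cd36 and Lpl at least 2-fold lower.

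The same contrast appeared in shares of cells. Since I-PpoI macrophage-like cells were deeper (median 8103.5 against 4418 UMIs), each cell was thinned to 1000 UMIs, which left out 10 I-PpoI cells. A Trem2 UMI was then found in 33.0% of I-PpoI cells (30.6 to 35.4%) and 7.19% of wild-type cells (3.77 to 12.2%), and before thinning in 83.5% of the I-PpoI cells, against 18.0% of the wild-type ones. No T and NK cell-like cell had a Trem2 UMI in either library (257 I-PpoI cells with a median of 2896 UMIs and 60 wild-type cells with 3012). Fabp5 was found in 8.11% of thinned I-PpoI cells (6.78 to 9.61%) and 0.599% of wild-type cells (0.0152 to 3.29%). For Lpl the order was the other way round, with 3.13% of I-PpoI cells (2.30 to 4.13%) and 17.4% of wild-type cells (11.9 to 24.0%), and Cd36 followed it with 4.59% of I-PpoI (3.59 to 5.77%) and 13.8% of wild-type cells (8.94 to 19.9%). Gpnmb was found in 0.731% of thinned I-PpoI cells (0.366 to 1.30%) and 0 of 167 wild-type cells, where 3 cells would be 1.80%. The shares for Cd9 and Lgals3 had overlapping intervals.

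Apoe was spread differently over the cells of the 2 libraries. In the I-PpoI library 11 of 1514 macrophage-like cells (0.727%) had no Apoe UMI, and in the wild-type library 40 of 167 (24.0%). The middle cell held 424 Apoe UMIs per 10000 in the I-PpoI library (quartiles 270 and 610) and 45.9 in the wild-type library (quartiles 2.03 and 140). The 40 wild-type cells without Apoe were as deep as the other 127 (median 4580 against 4291 UMIs). Together they had 0 Trem2 UMIs, where 3 UMIs would be 15.6 CPM, against 50 UMIs or 90.0 CPM in the 127 cells with Apoe. Their level of Lpl was 229 CPM, against 245 CPM in the cells with Apoe, and that of Tyrobp 2211 against 2425 CPM. The C1q gene C1qa stood at 6861 CPM in the cells without Apoe and 7679 CPM in those with it. Csf1r, another marker of the class, was at 360 against 668 CPM in the same order. The monocyte receptor gene Ccr2 was at 688 against 369 CPM, and the mannose receptor gene Mrc1 at 46.9 against 319 CPM. This split was chosen after the values were seen.

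The macrophage-like cells and the monocytes beside them were divided into 11 sub-clusters, again without the 10 genes and the lists. Hardly any sub-cluster was shared between the libraries, so the comparison above sets unlike cells side by side. Of the 167 wild-type cells, 155 lay in sub-cluster 5, a type with high MHC class II genes and Cd81 that held no I-PpoI cell and whose leading genes included the tubular transcripts Kap and Slc34a1. The I-PpoI cells fell into 9 other sub-clusters, among them an Il1b-high type (sub-cluster 0, 255 I-PpoI and 1 wild-type cell), a perivascular type with Cd163 and F13a1 (sub-cluster 3, 195 and 0) and an Arg1 type (sub-cluster 8, 106 and 0). Sub-cluster 6 (154 I-PpoI cells, no wild-type cell) matched none of the listed types and stayed unnamed. It was led by Atp6v0d2, a proton pump subunit gene, Syngr1, Il7r, Mfge8, which encodes a bridging protein for the uptake of dying cells, Lyz1 and Gdf15, leaving the 10 genes and the lists aside.

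Trem2 was higher in every I-PpoI sub-cluster with 30 or more cells than in the wild-type cells: it ranged from 336 CPM in the Il1b-high type to 965 CPM in sub-cluster 6, against 66.9 CPM in all wild-type macrophage-like cells. Apoe also exceeded the wild-type 8482 CPM in each of them, from 16060 CPM in the Arg1 type to 57619 CPM in sub-cluster 6. Tyrobp stayed between 1964 and 2626 CPM, on both sides of the wild-type 2370 CPM. In several of the genes most other sub-clusters stood lower than the rest of the I-PpoI macrophage-like cells. That rest includes sub-cluster 6, which held 99.1% of the Gpnmb UMIs of these cells and 81.9% of Fabp5. It also held 54.8% of Fabp4, 52.7% of Lpl and 48.2% of Cd36. The counts that follow were not taken without sub-cluster 6, so they do not describe the other sub-clusters apart from it. At least 2-fold lower were 6 of the 10 genes in sub-cluster 0 (3.86% of all genes), 5 in sub-cluster 1 (5.52%), 7 in sub-cluster 2 (3.75%; 6 if 1 cell of the other sub-clusters that held much Fabp4 is left out), 7 in sub-cluster 3 (3.28%), 5 in sub-cluster 4 (9.39%), 3 in sub-cluster 7 (3.48%) and 2 in sub-cluster 10 (9.06%). None of the 10 was at least 2-fold higher in sub-clusters 0 (0.975% of all genes), 1 (0.636%), 2 (1.85%), 3 (2.38%), 4 (1.1%) and 7 (1.3%). Gpnmb and Fabp5 were among the lower genes in each of these 7 sub-clusters, and neither Trem2 nor Apoe was in any of them. Fabp5 exceeded the wild-type 8.03 CPM in each I-PpoI sub-cluster with 30 or more cells, from 22.8 CPM in the Il1b-high type to 1675 CPM in sub-cluster 6. Gpnmb was at 212 CPM in sub-cluster 6, at 0.507 CPM in sub-cluster 0 and 1.68 CPM in sub-cluster 3, and had no UMI in the others.

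Sub-cluster 6 was singled out because most of the 10 genes were highest there, so its values describe it and are no test. Relative to the other 1360 I-PpoI macrophage-like cells, 8 of the 10 genes were at least 2-fold higher, against 3.09% of 9126 genes, and none was 2-fold lower, against 3.54%. The count of 8 depended on the clustering, as given below. Sub-cluster 6 held 10.2% of the I-PpoI macrophage-like cells and 15.4% of their UMIs, but 99.1% of their Gpnmb UMIs and 81.9% of their Fabp5 UMIs. Gpnmb had 444 UMIs (212 CPM) in sub-cluster 6 and 4 UMIs (0.348 CPM) in the other cells, a ratio of 610 (237 to 2249). Fabp5 stood at 1675 CPM in sub-cluster 6 and 67.5 CPM in the others, a ratio of 24.8 (23.0 to 26.9).

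The other genes of the set followed with smaller ratios. Fabp4 was at 59.8 CPM in sub-cluster 6 and 8.97 CPM in the other I-PpoI macrophage-like cells (ratio 6.67, 5.10 to 8.75), and Lpl at 197 CPM in sub-cluster 6 and 32.2 CPM in the others (6.12, 5.31 to 7.06). Cd36 was at 184 CPM in sub-cluster 6 and 35.9 CPM in the others (5.12, 4.45 to 5.90). For these 2 uptake and hydrolysis genes the summed level of sub-cluster 6 came near the wild-type cells, which had 241 CPM of Lpl and 136 CPM of Cd36. The spread over cells differed for Lpl, where 1 cell held 110 of the 412 UMIs of sub-cluster 6. An Lpl UMI was found in 37 of its 154 cells, against 84 of 167 wild-type cells, which were shallower (median 4418 against 11899 UMIs). For Cd36 it was 63 of 154 and 57 of 167 cells. Lgals3 was at 1773 CPM in sub-cluster 6 and 419 CPM in the others (4.23, 4.05 to 4.42). Trem2 was at 965 CPM in sub-cluster 6 and 410 CPM in the others (2.35, 2.23 to 2.48), and Cd9 at 503 CPM and 250 CPM (2.01, 1.87 to 2.16), just past 2-fold and at 1.97 without the cell that held most. Without its top cell, the ratio of Fabp4 was 4.32 (3.19 to 5.85). Apoe (1.37, 1.37 to 1.38) and Tyrobp (1.21, 1.17 to 1.24) were within 2-fold.

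**Figure D2:**
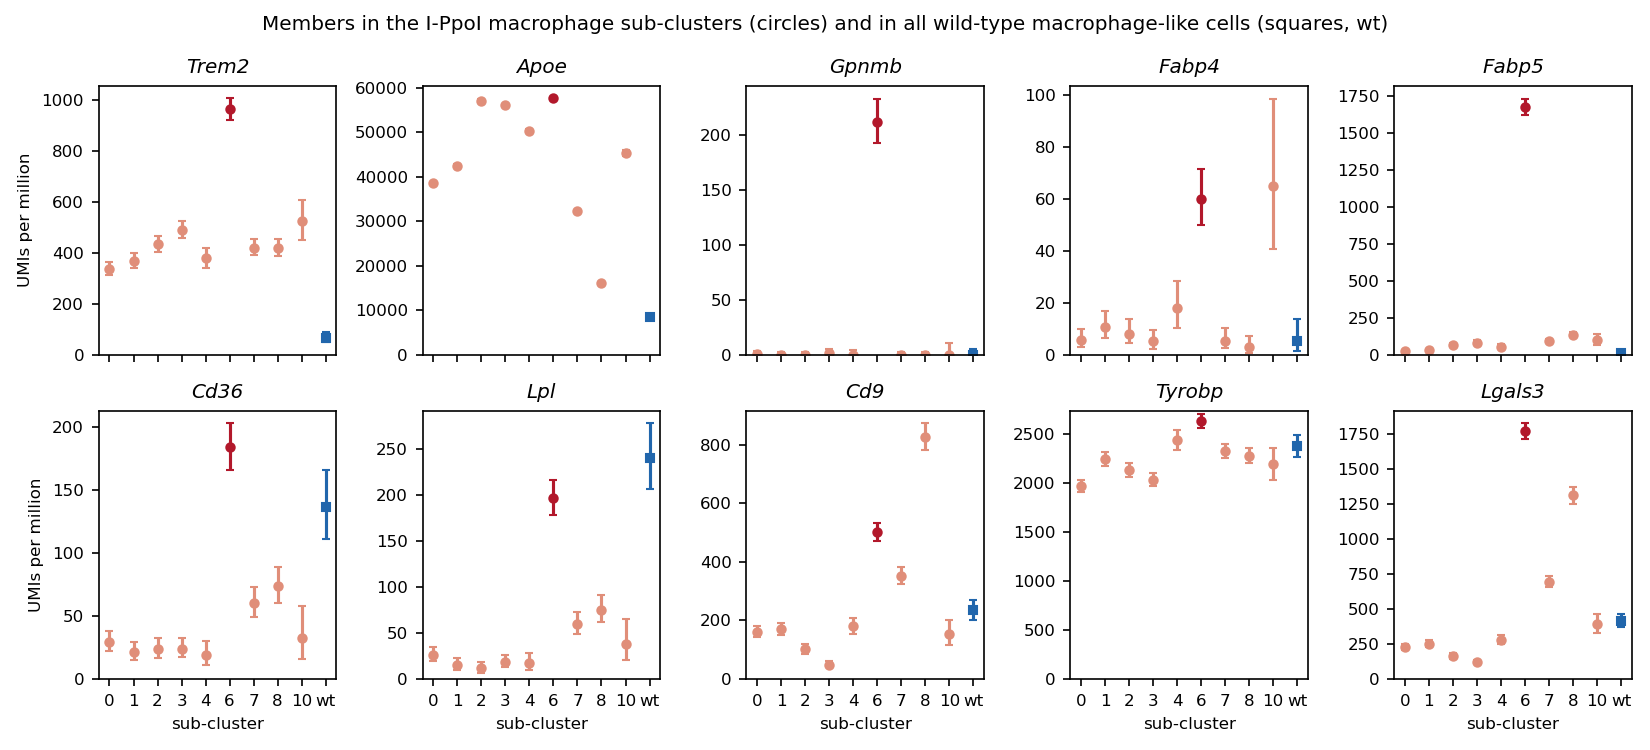
Level of each gene (CPM, one panel per gene, exact 95% counting intervals) in the I-PpoI cells of each macrophage sub-cluster with 30 or more such cells (circles, sub-cluster 6 in dark red) and in all wild-type macrophage-like cells (blue squares, wt). Sub-cluster 6 has the highest I-PpoI value for Trem2, Apoe, Gpnmb, Fabp5, Cd36, Lpl, Tyrobp and Lgals3, while Cd9 is highest in sub-cluster 8 with 827 CPM.

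Sub-cluster 6 also set part of the difference between the libraries. Without it, the ratio of I-PpoI to wild-type macrophage-like cells was 6.13 for Trem2 and 4.94 for Apoe, and 8.40 (3.84 to 23.0) in place of 39.2 for Fabp5. Gpnmb was left with 4 UMIs in the I-PpoI class and 0 in the wild-type one, for which no fold is given. Fabp4 came to 1.68 (0.635 to 6.26), Lgals3 to 1.01 (0.900 to 1.14) and Cd9 to 1.07 (0.916 to 1.25), intervals that include 1. Lpl and Cd36 moved further down, to 0.134 and 0.263. Without sub-cluster 6, 3 of the 10 genes were at least 2-fold higher and 2 at least 2-fold lower. The share over all genes was not taken without sub-cluster 6. With it, 10.2% of all genes were higher and 7.21% lower.

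Not every cell of sub-cluster 6 carried every transcript. Of its 154 cells, 151 had a Trem2 UMI, 147 had Lgals3, 134 had Cd9, 91 had Fabp5, 63 had Cd36, 37 had Lpl, 32 had Gpnmb and 25 had Fabp4. A single cell held 143 of the 448 Gpnmb UMIs of the class (31.9%). Of the 32 cells with Gpnmb, 30 also had Fabp5 and 17 had Lpl, whereas of the 122 cells without it 61 had Fabp5 and 20 had Lpl. The cells with Gpnmb were deeper (median 16136.5 against 11402.5 UMIs), and the part of depth in this was not tested.

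With every cell thinned to 1000 UMIs, a cell of sub-cluster 6 had a median of 4 of the 10 genes, against 3 in the other I-PpoI macrophage-like cells and 2 in the wild-type ones. At least 6 of the 10 were found in 24 of 153 cells of sub-cluster 6 (15.7%, 10.3 to 22.4%), in 8 of 1351 other I-PpoI cells (0.592%, 0.256 to 1.16%) and in 1 of 167 wild-type cells (0.599%, 0.0152 to 3.29%). No cell of any of the 3 groups had 9 or all 10 at this depth.

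**Figure D3:**
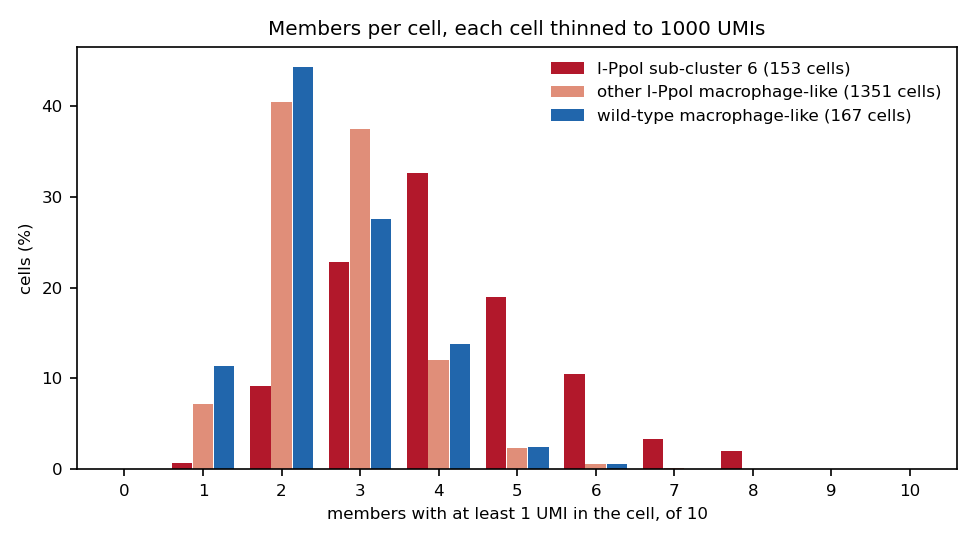
Percentage of cells (vertical axis) by the number of the 10 genes with at least 1 UMI (horizontal axis), each cell thinned to 1000 UMIs, for I-PpoI sub-cluster 6 (153 cells, dark red), the other I-PpoI macrophage-like cells (1351, light red) and the wild-type macrophage-like cells (167, blue). Cells with 6 or more genes make up 15.7% of sub-cluster 6, 0.592% of the other I-PpoI cells and 0.599% of the wild-type cells.

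How firmly the 154 cells hold together depended on the clustering. So did the count of genes at least 2-fold higher than in the other I-PpoI macrophage-like cells. In the sub-cluster with most of the 154 cells it was 7 without doublet removal, 8 with all variable genes and 7 at a resolution of 0.5. It was 4 at a limit of 25 percent mitochondrial UMIs, 4 at one of 500 genes and 1 at a resolution of 2. In the sub-cluster with the next most cells it was 7, 6 and 7 in the same order. Without doublet removal, 147 of the 154 lay in 1 sub-cluster, with Gpnmb at 172 CPM. With all variable genes 136 did, with Gpnmb at 192 CPM, and at a resolution of 0.5 it was 118, with 156 CPM. At a resolution of 2 the cells split into parts with opposite profiles. The first new sub-cluster (113 cells, 94 of the 154) had 73794 CPM of Apoe, 816 CPM of Fabp5, 26.6 CPM of Gpnmb and 19.4 CPM of Lpl. Gpnmb and Lpl were thus lower there than in the other I-PpoI macrophage-like cells, which had 33.1 and 62.2 CPM. The second (75 cells, 51 of the 154) had 31110 CPM of Apoe, 1994 CPM of Fabp5, 323 CPM of Gpnmb, 325 CPM of Lpl and 2608 CPM of Lgals3, with Trem2 nearly equal at 880 CPM in the first and 869 CPM in the second. Limits of 25 percent mitochondrial UMIs and of 500 genes also split the cells into a part with more Apoe and less Lpl and a part with less Apoe and more Lpl, but the other genes went differently. At the first limit the Apoe-rich sub-cluster (107 cells) had 23.0 CPM of Lpl, 105 CPM of Gpnmb, 1141 CPM of Fabp5 and 964 CPM of Trem2, and the other (180 I-PpoI cells) 209, 129, 920 and 622 CPM of the same genes.

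Markers of other cell classes were low in sub-cluster 6, with some exceptions. The 10 macrophage markers summed to 18875 CPM in sub-cluster 6, 20607 CPM in the other I-PpoI macrophage-like cells and 23287 CPM in wild-type ones, with C1qa at 5369, 6375 and 7469 CPM. The lysosomal marker Cd68 was at 650 CPM in sub-cluster 6 and 302 CPM in the others, and Mrc1 at 267 and 626 CPM. The 7 erythroid markers, mainly haemoglobin genes, summed to 2495 CPM in sub-cluster 6, 777 CPM in the other I-PpoI cells and 49.5 CPM in wild-type ones. The 8 neutrophil markers summed to 96.2 CPM in sub-cluster 6 and 41.1 CPM in the others, far under the 59781 CPM of I-PpoI neutrophil-like cells. The T and NK cell list reached 76.6 CPM in sub-cluster 6, but 75.6 CPM of this was Il7r and 7 of its 10 markers had no UMI. The intercalated cell list reached 116 CPM, of which 115 CPM was Atp6v0d2. The cells were also deep, with a median of 11899 UMIs. The part of haemoglobin RNA, of depth and of doublets that escaped removal in these values was not tested.

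The promoters of genes that were high together in sub-cluster 6 are shown for the 5 of the 8 that are in the promoter table used (RefSeq, GRCm38.p6). Each sequence is the 250 bases before the annotated RefSeq start, written on the strand of the gene, with motif matches in capitals. The windows are chr17:48346151-48346400 (Trem2, plus strand), chr6:49036268-49036517 (Gpnmb, plus), chr5:17835897-17836146 (Cd36, minus), chr6:125494761-125495010 (Cd9, minus) and chr14:47373610-47373859 (Lgals3, plus). For Cd36, Cd9 and Lgals3 this start lies inside the GENCODE gene span.
Trem2: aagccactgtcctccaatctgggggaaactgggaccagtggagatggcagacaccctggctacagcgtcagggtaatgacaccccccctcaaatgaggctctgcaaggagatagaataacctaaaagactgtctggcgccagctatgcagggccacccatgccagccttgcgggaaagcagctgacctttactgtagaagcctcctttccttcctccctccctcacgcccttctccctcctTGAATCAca
Gpnmb: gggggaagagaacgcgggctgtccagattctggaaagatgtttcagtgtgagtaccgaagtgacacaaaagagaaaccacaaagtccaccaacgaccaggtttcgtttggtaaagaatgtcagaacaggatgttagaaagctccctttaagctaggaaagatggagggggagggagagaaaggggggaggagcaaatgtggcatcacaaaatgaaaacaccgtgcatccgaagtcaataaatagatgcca
Cd36: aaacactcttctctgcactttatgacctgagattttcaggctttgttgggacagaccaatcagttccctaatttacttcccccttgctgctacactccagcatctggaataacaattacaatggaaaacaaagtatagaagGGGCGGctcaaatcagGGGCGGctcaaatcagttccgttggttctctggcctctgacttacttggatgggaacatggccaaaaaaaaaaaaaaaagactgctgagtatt
Cd9: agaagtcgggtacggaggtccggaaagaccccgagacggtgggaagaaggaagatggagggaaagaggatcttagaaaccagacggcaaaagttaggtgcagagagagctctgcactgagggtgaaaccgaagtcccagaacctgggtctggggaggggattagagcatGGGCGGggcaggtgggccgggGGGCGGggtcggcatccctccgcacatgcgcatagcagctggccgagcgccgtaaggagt
Lgals3: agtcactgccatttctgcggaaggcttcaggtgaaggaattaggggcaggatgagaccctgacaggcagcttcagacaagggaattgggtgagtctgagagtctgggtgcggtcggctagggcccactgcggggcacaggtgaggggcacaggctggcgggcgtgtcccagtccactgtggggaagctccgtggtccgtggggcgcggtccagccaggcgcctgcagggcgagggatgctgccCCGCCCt

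Their GC content was 56.0% for Trem2, 47.2% for Gpnmb, 43.2% for Cd36, 61.6% for Cd9 and 66.0% for Lgals3, beside a median of 52.4% over 32851 promoters. On both strands, the search covered the AP-1 site TGANTCA (in 6.75% of all promoters of this length), the GC box GGGCGG (32.7%), the TATA box TATAAA (12.4%), the E-box CACGTG (6.02%) and the PU.1 core GAGGAAGT (2.44%), none of which overlapped another in these 5. The Trem2 window held 1 AP-1 match, which began 9 bases before the start. GC boxes were found in Cd36 (2), Cd9 (2) and Lgals3 (1, on the opposite strand as CCGCCC), and the Gpnmb window held none of the motifs. No motif was shared by all 5. The motifs were chosen partly with the sequences in view, and a match describes letters and not binding.

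The Arg1 type, sub-cluster 8, showed a different part of the set. Cd9 was at 827 CPM there and 225 CPM in the other I-PpoI macrophage-like cells (ratio 3.68, 3.43 to 3.94), and Lgals3 at 1312 and 546 CPM (2.40, 2.28 to 2.53). These 2 of 10 genes were at least 2-fold higher, against 4.84% of all genes tested. Apoe, Gpnmb, Fabp4 and Fabp5 were at least 2-fold lower, against 7.52% of genes, with Apoe at 16060 CPM in the Arg1 type and 47691 CPM in the others (0.337, 0.332 to 0.341). No Gpnmb UMI was found in its 106 cells, although their median depth of 13279 UMIs was the highest of the sub-clusters. In sub-cluster 10, led by interferon-stimulated genes, 1 gene of the set was at least 2-fold higher (Fabp4, 22 UMIs), against 6.96% of all genes. A single cell held 20 of these UMIs, and without it the ratio was 0.387 (0.0466 to 1.42) in place of 4.18.

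In the perivascular type, sub-cluster 3, Apoe at 56072 CPM was near the top of the range and Trem2 stood at 490 CPM, while Cd9 at 49.7 CPM and Lgals3 at 120 CPM were the lowest of any I-PpoI sub-cluster. The monocyte-like cells (54 I-PpoI and 9 wild-type cells) had 353 CPM of Trem2 in the I-PpoI and 117 CPM in the wild-type library, with 23031 and 6787 CPM of Apoe and 988 and 778 CPM of Lgals3 in the same order. Fabp4 at 603 CPM in the wild-type monocyte-like cells came from 31 UMIs in 3 of 9 cells. Trem2, Apoe and Lgals3 thus varied separately over the macrophage types.

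A second list held genes of lipid handling outside the set (uptake, storage, efflux and lysosomal breakdown). Of its 40 symbols 36 had at least 10 UMIs in macrophage-like cells, and 15 of these were at least 2-fold higher in the I-PpoI library and 3 (Acsl1, Pparg and Fabp3) at least 2-fold lower, with a median log2 ratio of 0.72. Over all 11538 genes with that many UMIs, 11.7% were at least 2-fold higher, 12.3% were lower and the median was -0.05. In 3 list genes (Nr1h3, Olr1 and Csf1) the wild-type cells had no UMI, and with these at their bound against 3 UMIs 12 were higher and the median was 0.50. The genes named by rule were Spp1, which encodes osteopontin (947 CPM in I-PpoI and 40.1 CPM in wild-type cells, ratio 23.6, 16.5 to 35.0), and the cathepsin genes Ctsd (744 and 73.6 CPM, ratio 10.1, 7.76 to 13.4) and Ctsl (403 and 54.9 CPM, ratio 7.35, 5.41 to 10.3). On the lower side stood Acsl1, which activates fatty acids (50.8 CPM in I-PpoI and 138 CPM in wild-type cells, ratio 0.369, 0.299 to 0.458), and Pparg, a nuclear receptor of fatty acids (12.2 and 25.4 CPM, ratio 0.478). Acsl1 and Pparg moved with Cd36 and Lpl in direction.

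In the list of TREM2-TYROBP signalling, of 18 counted genes, 6 were at least 2-fold higher in I-PpoI macrophage-like cells and 0 lower, with a median of 0.14. Over all genes 11.7% were higher and 12.3% lower. With Trem1 and Trem3, absent from the wild-type cells, at their bound, 5 were higher and the median was 0.05. The 6 were Sirpb1c, Trem1, Cd300lb, Ms4a4a, Ms4a6d and Trem3, while the receptor genes Clec5a (ratio 0.769) and Cd300ld (0.807) were not among them. Ms4a6d was at 298 CPM in I-PpoI and 45.5 CPM in wild-type cells (ratio 6.54, 4.67 to 9.46). Sirpb1c had 1358 UMIs in I-PpoI cells and 2 UMIs in wild-type ones (ratio 37.4, 10.3 to 309), and Cd300lb 302 and 1 (ratio 16.6, 2.96 to 659). The Sirpb1, Cd300, Trem and Ms4a genes are families of similar copies, and their counts are uncertain where reads are shared. Among the enzymes, Ptpn6, the phosphatase SHP-1, was at 134 CPM in I-PpoI and 210 CPM in wild-type cells (0.639, 0.543 to 0.758). Plcg2 had a ratio of 0.732 (0.516 to 1.07) and Syk, the kinase bound by TYROBP, 1.38 (1.00 to 1.95).

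Relative to the other I-PpoI macrophage-like cells, sub-cluster 6 had 15 of 33 counted lipid-handling genes at least 2-fold higher and 0 lower. Over all genes 3.09% were higher and 3.54% lower. The list median was 0.85, beside 0.03 over all genes. Ctsd led with 2821 CPM in sub-cluster 6 and 366 CPM in the others (ratio 7.72), before Lipa, the lysosomal acid lipase gene (415 and 107 CPM, 3.87), and the elastase gene Mmp12 (1609 and 429 CPM, 3.75). Spp1 was at 2017 and 752 CPM (2.68) and the lipid droplet gene Plin2 at 277 and 133 CPM (2.08). The cholesterol exporter gene Abcg1 and the cholesterol handlers Npc1 and Nceh1 were also among the 15. Of 18 signalling genes 1 was at least 2-fold higher (Cd300lb) and 1 lower (Trem3), beside the same shares of all genes, with a median of 0.12. The Arg1 type had 8 lipid-handling genes higher and 3 lower, with a median of -0.12, and 5 signalling genes higher (Trem1, Trem3, Clec5a, Sirpb1c and Cd300lb). Over all genes 4.84% were higher in the Arg1 type and 7.52% lower. Since the list genes, like the 10, were left out of the clustering, they did not place the cells, but genes that vary with them could.

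**Figure D4:**
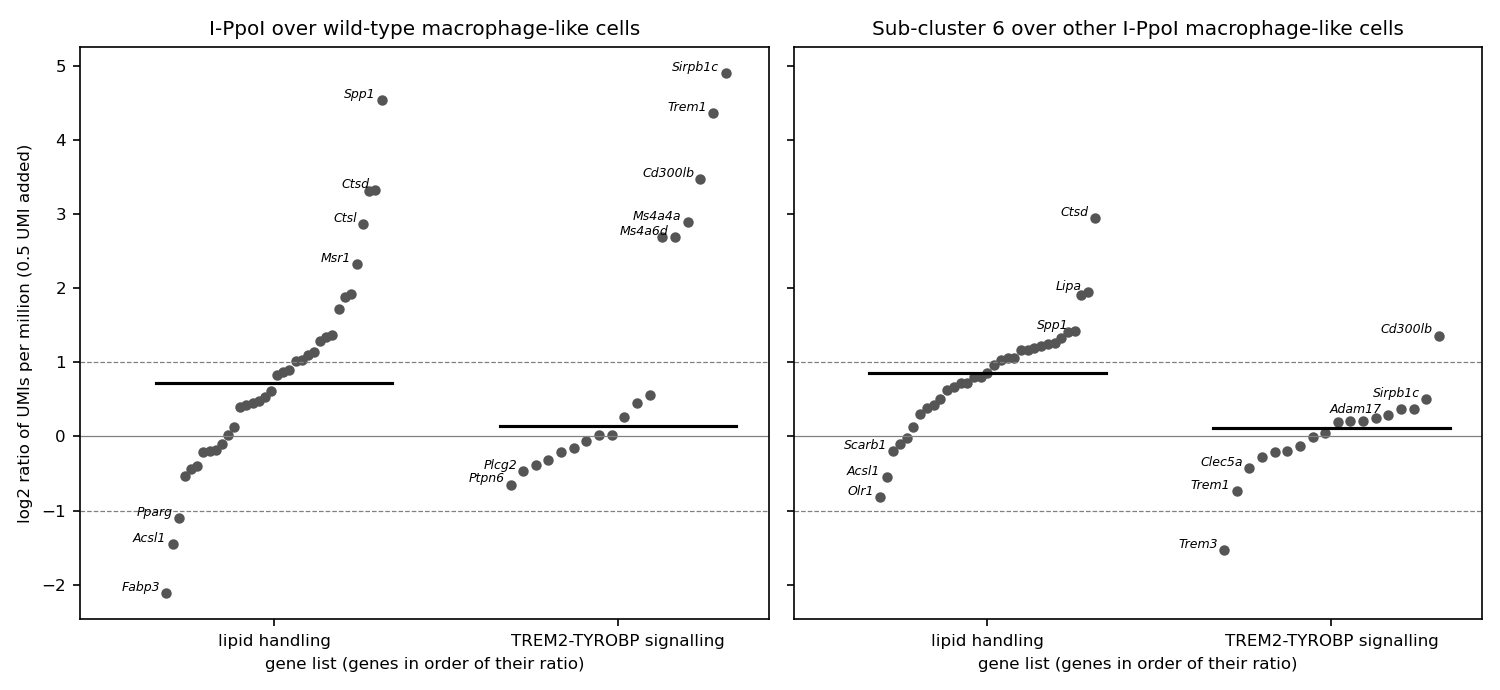
Log2 ratio of the CPM of each gene of the lipid-handling and TREM2-TYROBP signalling lists, in order of the ratio, in I-PpoI over wild-type macrophage-like cells (left) and in sub-cluster 6 over the other I-PpoI macrophage-like cells (right); 0.5 UMIs were added to each count, bars are list medians and dashed lines 2-fold. The lipid-handling medians are 0.72 and 0.85, the signalling medians 0.14 and 0.12.

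The genes whose levels ran most like each of the 10 were taken over 28 profiles of classes, sub-clusters and libraries with 30 or more cells, which share their libraries and depth, so that the correlations only describe. Trem2 was most like Msr1, a scavenger receptor gene (r = 0.97), C3ar1 (0.96) and Tlr8 (0.95), and Tyrobp most like Fcer1g, the other adaptor gene of this kind (0.98). Apoe was most like C1qa (0.92), Lyz2 and C1qb (both 0.91). Gpnmb had lower values, with Bhlhe41 (0.76) and Hal (0.71), and Fabp5 was most like Eepd1 (0.82). Lgals3 was most like Gsto1 (0.79) and Cd9 most like Chmp2a (0.83). Fabp4 ran with Arhgef26 (0.93) and Pcdh12 (0.92), Cd36 with Slc12a7 (0.74) and Lpl with Ybx1 (0.70). None of the 10 had another of the 10 among its 3 nearest genes.

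Across the kidney, 3 of the 10 genes (Trem2, Apoe and Fabp5) had their highest I-PpoI level in macrophage-like cells, among classes with 20 or more cells. These cells held 92.0% of the Trem2 UMIs of the I-PpoI library, 92.2% of Apoe and 72.0% of Gpnmb, but 1.10% of Fabp4 and 31.5% of Lpl. In the wild-type library they held 79.4% of Trem2 (50 of 63 UMIs), 48.9% of Apoe and 2.36% of Lpl. Library totals of Lpl and Fabp4 therefore say little about macrophages. For Fabp5 the first place was narrow, with 315 CPM in macrophage-like and 300 CPM in endothelial-like I-PpoI cells.

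**Figure D5:**
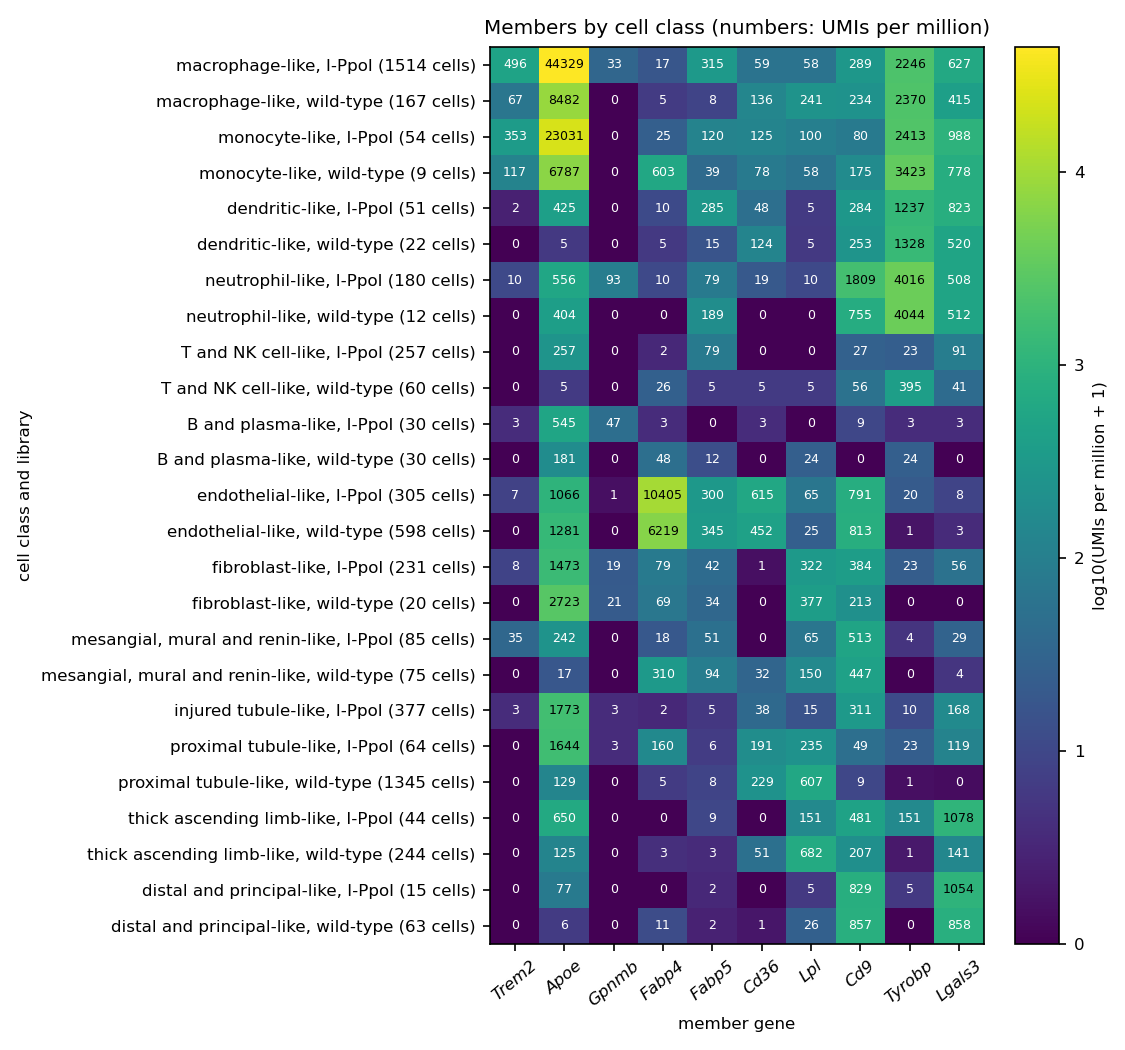
Level of each gene (columns) by cell class and library (rows, I-PpoI above wild-type; groups of 9 or more cells), with the number giving CPM and the colour log10(CPM + 1). Trem2 and Apoe are highest in macrophage-like cells, Tyrobp in neutrophil-like cells, Fabp4 and Cd36 in endothelial-like cells, and Lpl in wild-type tubular cells.

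Trem2 outside macrophages and monocytes was at most 9.55 CPM in the other named I-PpoI classes, except for 35.4 CPM (18 UMIs) in mesangial, mural and renin-like cells, and it had no UMI in the corresponding wild-type classes. Apoe was found in every class, and no correction was made for free RNA in the droplets. Scaled by macrophage marker genes, macrophage RNA would bring 303 CPM of Apoe to I-PpoI T and NK cell-like cells, where 257 CPM was measured, and 592 CPM to dendritic-like cells, where it was 425 CPM. The part of such RNA in the values of these classes was not tested. In I-PpoI proximal tubule-like cells such RNA would bring 46.7 CPM, and 1644 CPM was measured (64 cells), against 129 CPM in the wild-type class (1345 cells), a ratio of 12.8 (11.5 to 14.2). Of the 567 I-PpoI UMIs 295 came from 1 cell, and without it the level was 914 CPM and the ratio 7.11 (6.21 to 8.12). Cluster 31 held 448 of the UMIs, and in cluster 1 Apoe was at 723 CPM in I-PpoI and 428 CPM in wild-type cells (1.69, 1.22 to 2.29). Injured tubule-like cells, 377 in the I-PpoI and 1 in the wild-type library, had 1773 CPM in the I-PpoI library, where macrophage RNA would bring 176 CPM. In fibroblast-like cells Apoe was lower in the I-PpoI library, at 1473 CPM against 2723 CPM in 20 wild-type cells (0.541, 0.488 to 0.600). Of the 8 genes of the set with at least 50 UMIs there, 2 counted as higher by 2-fold, against 10.8% of genes, and 0 as lower, against 14.2%. They were Tyrobp (80 UMIs in I-PpoI cells and 0 in wild-type ones) and Lgals3 (195 and 0 UMIs), whose bounds against 3 UMIs were only 1.11-fold and 2.72-fold. In mesangial, mural and renin-like cells (85 I-PpoI and 75 wild-type cells) 5 of the 10 genes had at least 50 UMIs. Apoe was at 242 CPM in I-PpoI and 17.1 CPM in wild-type cells, the 1 gene of these at least 2-fold higher, against 4.3% of genes. Fabp4 was at 17.7 and 310 CPM there and, like Lpl, at least 2-fold lower, as were 3% of genes. Of the 145 wild-type Fabp4 UMIs 61 came from 1 cell, without which the ratio was 0.0970 in place of 0.0570, and that of Lpl was 0.513 without its top wild-type cell.

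Lpl was also found in tubular cells. It stood at 235 CPM in I-PpoI and 607 CPM in wild-type proximal tubule-like cells (0.387, 0.307 to 0.482) and at 151 and 682 CPM in thick ascending limb-like cells (0.222, 0.129 to 0.357). The libraries filled these classes from different clusters, and the Lpl difference depended on them. All 44 I-PpoI thick ascending limb-like cells lay in cluster 12, with 173 of the wild-type cells, and Lpl was at 151 CPM in I-PpoI and 401 CPM in wild-type cells there (0.377, 0.215 to 0.623). In proximal tubule-like cluster 1 (29 I-PpoI and 406 wild-type cells) Lpl was at 80.4 CPM in I-PpoI and 47.6 CPM in wild-type cells (1.69, 0.529 to 4.18), and in cluster 3 (9 and 416 cells) at 1026 and 786 CPM (1.31, 0.878 to 1.87). In cluster 31 (12 and 46 cells) it had 0 UMIs in the I-PpoI and 223 in the wild-type library. In fibroblast-like cells Lpl was at 322 CPM in I-PpoI and 377 CPM in wild-type cells, an interval that includes 1 (0.852, 0.650 to 1.14). Lgals3 was higher in the I-PpoI tubular classes, with 1078 CPM in I-PpoI and 141 CPM in wild-type thick ascending limb-like cells (7.63, 6.10 to 9.50) and 119 against 0.441 CPM in proximal tubule-like cells (41 and 4 UMIs). These classes held 44 and 64 I-PpoI cells. In the proximal tubule-like class 26 of the 41 I-PpoI Lgals3 UMIs came from 1 cell, and 10 of the 64 cells had any. In its clusters 1, 3 and 16 neither library had an Lgals3 UMI. The distal and principal-like cells (15 I-PpoI and 63 wild-type cells) had high levels in both libraries, with Lgals3 at 1054 and 858 CPM and Cd9 at 829 and 857 CPM. In proximal tubule-like cells 6 of the 10 genes had at least 50 UMIs, of which 3 were at least 2-fold higher (8.57% of genes) and 1 lower (5.86%). These 3 were Apoe, Cd9 and Fabp4, but the 55 I-PpoI UMIs of Fabp4 all came from 1 cell, without which 0 remained. In thick ascending limb-like cells 5 had at least 50 UMIs, of which 3 were higher (5.69%) and 2 lower (27.7%).

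Among other immune cells, neutrophil-like cells had the highest I-PpoI levels of Cd9 (1809 CPM, against 755 CPM in 12 wild-type cells) and Tyrobp (4016 against 4044 CPM). They also held 39 Gpnmb UMIs (93.1 CPM), all in 7 of 180 I-PpoI cells. Gpnmb was found in 37 of 231 I-PpoI fibroblast-like cells (68 UMIs, 19.5 CPM) and in 3 of 20 wild-type ones (3 UMIs, 20.6 CPM), which are all the Gpnmb UMIs of the wild-type cells. In dendritic-like cells Fabp5 stood at 285 CPM in 51 I-PpoI cells and 14.9 CPM in 22 wild-type cells (19.2, 6.45 to 94.0), while Trem2 had 1 and 0 UMIs there. Of the 6 genes of the set with at least 50 UMIs in this class, 2 were at least 2-fold higher (8.3% of genes) and 1 lower (3.74%). They were Fabp5 and Apoe, with 188 of the 249 I-PpoI Apoe UMIs in 1 cell, and Cd36, which was at a ratio of 0.679 (0.340 to 1.43) in place of 0.386 without 1 wild-type cell. Tyrobp in T and NK cell-like cells was at 23.0 CPM in I-PpoI and 395 CPM in wild-type cells (0.0583, 0.0333 to 0.0973), a class that takes in NK cells, which use this adaptor. It is made of cluster 15 (171 I-PpoI and 12 wild-type cells) and cluster 19 (86 and 48), and within cluster 19, which held all 77 wild-type UMIs, the levels were 47.2 CPM in I-PpoI and 481 CPM in wild-type cells (0.0983, 0.0513 to 0.175). The 77 wild-type Tyrobp UMIs came from 9 of 60 cells of the class. Its 19 I-PpoI Tyrobp UMIs came from 10 of 257 cells, 9 of them from 1 cell. In the whole class 4 of the 10 genes had at least 50 UMIs. Of these 3 (Apoe, Fabp5 and Lgals3) were at least 2-fold higher, against 6.76% of genes, and 1 (Tyrobp) lower, against 4.21%. Apoe and Fabp5 had 1 wild-type UMI each, and the Apoe level lay under what macrophage RNA would bring, as given above. Of the 65 I-PpoI Fabp5 UMIs 62 lay in cluster 15. In cluster 19 Fabp5 had 3 I-PpoI UMIs and 1 wild-type UMI (1.62, 0.130 to 85.1). In B and plasma-like cells, 30 in each library, only 1 of the 10 genes, Apoe, had at least 50 UMIs. It was at least 2-fold higher (545 CPM in I-PpoI and 181 CPM in wild-type cells), as were 13.7% of genes. No other gene of the set could be counted as lower, while 41.2% of all genes were.

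Endothelial-like cells, 305 in the I-PpoI and 598 in the wild-type library, held 89.0% of the Fabp4 UMIs of the I-PpoI and 87.4% of those of the wild-type library. Of the Cd36 UMIs they held 46.5% in the I-PpoI and 32.7% in the wild-type library, where proximal tubule-like cells held 58.8%. Fabp4 stood at 10405 CPM in I-PpoI and 6219 CPM in wild-type cells (1.67, 1.64 to 1.71), Cd36 at 615 and 452 CPM (1.36, 1.25 to 1.48) and Lpl at 65.3 and 24.7 CPM (2.64, 1.93 to 3.65, or 5.34 without 1 wild-type cell that held 32 of its 63 UMIs). Of the 6 genes of the set with at least 50 UMIs, Lpl alone was at least 2-fold higher, against 4.66% of genes. None of the 6 was 2-fold lower, against 4.75%. These values rested on 18 cells of the I-PpoI and 9 of the wild-type library, a small cluster led by Gpihbp1, which anchors lipoprotein lipase on capillaries, Rbp7 and Timp4, with Fabp4 and Cd36 beside them. There Fabp4 reached 107444 CPM in I-PpoI and 36765 CPM in wild-type cells and Cd36 13285 and 5457 CPM. The cluster held 93.1% of the Cd36 UMIs and 96.6% of the Lpl UMIs of the I-PpoI class, against 11.5% and 12.7% in the wild-type class.

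Without these 27 cells the direction turned. Cd36 was then at 44.1 CPM in I-PpoI and 404 CPM in wild-type endothelial-like cells (0.109, 0.0852 to 0.138), Lpl had 4 UMIs in I-PpoI cells and 55 UMIs in wild-type ones (0.108, 0.0284 to 0.292), or 0.257 (0.0646 to 0.752) without 1 wild-type cell that held 32 of the 55, and Fabp4 was equal within counting error at 6029 and 5924 CPM (1.02, 0.992 to 1.04). Different clusters made up the rest of the class: cluster 2 held 12 I-PpoI and 423 wild-type cells, cluster 8 held 275 and 16, and cluster 18 held 0 and 150. Within cluster 8 Cd36 was at 44.2 CPM in I-PpoI and 248 CPM in wild-type cells, and within cluster 2 at 43.3 and 300 CPM. Outside the Gpihbp1-led cluster, Cd36 was thus lower in the I-PpoI library both in endothelial-like and in macrophage-like cells.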

How the data were processed

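The authors deposited raw UMI counts per gene and cell barcode for 1 I-PpoI and 1 wild-type library, made with the Chromium 3' kit 3.1 per the labels' protocols. The counting program was Cell Ranger 6.0.2 per the file headers and Cell Ranger 3.1 per the labels, which also name Seurat 3. How reads that match several genes were treated is not given in the sources used here. Of 31053 gene IDs, 30934 matched GENCODE release M21, from which gene spans were taken.

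The deposited counts hold 5268 I-PpoI and 5536 wild-type barcodes. Cells with at least 200 genes and at most 50% mitochondrial UMIs were kept. Scrublet's own threshold marked 30 barcodes (0.733%) in the I-PpoI and 5 (0.155%) in the wild-type library, so the top 4% of doublet scores were left out in both (142 and 123 cells). No correction for free RNA was made. The libraries were clustered jointly with scanpy 1.11.5 and leidenalg 0.10.2 (2000 variable genes, 30 components, 15 neighbours, resolution 1), without the 10 genes, the lists, mitochondrial and haemoglobin genes. This gave 33 clusters, of which 8 (1190 cells) stayed unnamed. No cluster was named as podocytes. A cluster took a class name from at least 3 markers with 25 CPM and a level 4-fold over the median cluster, limits set after the data were seen.

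UMIs were summed per class and library. A ratio of a class needs 50 UMIs over both libraries together (10 for the list genes) and 20 cells in each library. Ratios within single clusters or without 1 cell could rest on fewer. The size used throughout is 2-fold. The ratio's interval is the exact conditional binomial one, that of a level the exact Poisson one and that of a share of cells the Clopper-Pearson one. Counts of 0 use a floor of 3 UMIs or 3 cells, which is not an exact limit. The calculation of the ratio's interval was checked on simulated Poisson counts. These leave out the uneven spread of UMIs between cells, so they say nothing on it. All 10 genes are named, with 3 higher and 3 lower genes per list by the interval bound nearest to 1, and 3 most alike genes per member by the Pearson correlation of log2(CPM + 10); a few of the genes this rule names are not reported here. The 10 genes and the lists were chosen with earlier results of these data known. Alternatives were other filters, thinning depths, clusterings and fold limits, without the cells or clusters in doubt.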

Additional observations from a re-analysis of the deposited data

How the results depend on the processing

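With 1 library per group, no spread between mice could be measured, and every interval covers counting error only. No paired analysis was possible because each group has 1 library. The alternatives that leave out sub-cluster 6 or the Gpihbp1-led cluster, or add a haemoglobin-led cluster, were chosen after seeing the data. Over 11 settings, 109 ratios of the 10 genes in macrophage-like cells were recomputed: 91 lay inside the interval reported, 16 outside it in the same direction, and 2 reversed. Both were Fabp4, whose log2 ratio was -1.37 at a resolution of 0.5 and -1.38 with all variable genes in the clustering, in place of 1.65, with a wild-type class of 176 and 174 cells. Without sub-cluster 6, 3 genes in place of 5 were at least 2-fold higher, and the intervals of 6 genes in place of 10 lay clear of 1; fewer cells were counted by construction. The share of I-PpoI macrophage-like cells with a Trem2 UMI was 18.6% at 500 UMIs per cell and 83.5% without thinning, in place of 33.0%, as depth sets it. Over all settings the log2 ratio ran from 2.62 to 3.03 for Trem2, from 2.30 to 2.52 for Apoe, from 3.07 to 5.31 for Fabp5, from -1.93 to -1.12 for Cd36 and from -2.90 to -1.77 for Lpl. Cd9 (0.09 to 0.41) and Lgals3 (0.01 to 0.65) stayed under 2-fold. Cd36 and Lpl in endothelial-like cells turned to ratios of 0.109 and 0.108 without the Gpihbp1-led cluster (0.257 for Lpl without 1 wild-type cell besides). Leaving out the cell with most UMIs of a gene, or taking clusters one by one, both also chosen after seeing the data, reversed Fabp4 in sub-cluster 10 (0.387) and proximal tubule-like cells (0, no UMI left), and Lpl in proximal tubule-like clusters 1 (1.69) and 3 (1.31).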
